A study of Homo sapiens with 9 samples.

Results

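The human mitochondrial genome carries 37 genes, and all 37 were found among the 58735 genes of the count table by their chromosome entry, MT. By the biotype in the files, 13 were protein-coding, 2 were ribosomal RNAs and 22 were transfer RNAs. In the APOB knockout cells, mitochondrial mRNAs took a larger share of the RNA sequenced than in control cells, at 6.25% ± 0.20 against 4.40% ± 0.32 (SD, n = 3 each). In the MTTP knockout cells the mRNA share was 5.02% ± 0.043 (SD, n = 3). The share of the 2 ribosomal RNAs together went the other way, from 1.36% ± 0.096 in control cells to 1.01% ± 0.017 in the APOB knockout cells and 0.751% ± 0.020 in the MTTP knockout cells. Of the 2, only MT-RNR2 fell in the APOB knockout cells (edgeR adjusted p = 1.7e-05, against 0.36 for MT-RNR1).

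Mitochondrial DNA is a small circle that encodes subunits of the respiratory chain together with the rRNAs and tRNAs needed to translate them inside the organelle. A dedicated RNA polymerase, POLRMT, copies each strand into long transcripts, and the tRNAs that punctuate these transcripts are cut out to release mRNAs and rRNAs. Most of the mRNAs and both rRNAs then receive A tails from the poly(A) polymerase MTPAP, while the tRNAs receive only the CCA end, and MT-ND6, encoded on the opposite strand from the other mRNAs, is known for lacking a tail. Steady-state levels therefore depend on transcription and also on processing and decay of each RNA. In hepatocytes, the respiratory chain fed by fatty acid oxidation is a main source of ATP.

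RNA was sequenced from 3 groups of cells of the human hepatoma line Huh-7, with 3 libraries per group and 9 in all: the unedited line (genotype WT, the control), Ako-3, in which APOB was disrupted with CRISPR/Cas9, and Mko-3, in which MTTP was disrupted. ApoB is the structural protein of very low density lipoproteins, and MTTP encodes the transfer protein that loads it with lipid. All groups were grown in medium with serum, washed near confluence and kept overnight without serum before RNA was taken. Each knockout is a single clone, so that what separates a clone from the parental line cannot be told apart from what the disrupted gene does. The control libraries served both knockout comparisons, and the labels call the libraries biological replicates without naming separate cultures.

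The disrupted genes were checked first. APOB was at 3354 ± 609 CPM in control, 1315 ± 91.2 in Ako-3 and 3258 ± 147 in Mko-3 cells (SD, n = 3 each), where CPM is the count scaled by a TMM-adjusted library size. MTTP was at 634 ± 29.7, 572 ± 29.3 and 87.0 ± 3.9 CPM in the same order, and each target was low in the clone in which it was disrupted (log2 fold change -1.36 for APOB and -2.88 for MTTP, edgeR adjusted p = 7.1e-05 and 9.4e-19). Summed over 8 hepatocyte and hepatoma genes such as ALB, AFP and APOA1, the CPM ran from 15932 to 16466 in control, 18297 to 19085 in Ako-3 and 15996 to 16805 in Mko-3 libraries. At an edgeR adjusted p of at most 0.05, 6 of the 8 were higher and 0 lower in Ako-3 than in control cells. In Mko-3 cells 3 were higher and 2 lower. Of all genes tested, 25.5% were higher and 24.4% lower in Ako-3, and 26.9% and 27.1% in Mko-3 cells. Of 9 genes that mark blood, endothelial and fibroblast cells, CD68 had no count in any library and 3 passed the filter on low counts, with PECAM1 the most abundant. The total of counts on genes ranged from 14638727 to 20179760 per library, with a median of 17694709.

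The genes lie end to end on a circle of 16569 bases, and all 37 had the same coordinates in the files as in GENCODE release 44 on hg38. Of the 13 mRNAs, 12 read along the plus strand of the reference, and MT-ND6 and 8 of the tRNAs read along the minus strand. The libraries were built from poly(A)-selected RNA with a second strand made with dTTP, which does not mark strand. Reads from the 2 strands of one place therefore could not be told apart, and counts on MT-ND6 and the minus-strand tRNAs may hold RNA of the opposite strand. MT-ATP8 and MT-ATP6 share 46 bases, MT-ND4L and MT-ND4 share 7, and MT-ATP6 and MT-CO3 share 1. How reads over such overlaps were assigned is not given in the sources used here, and the values of MT-ATP8 and MT-ND4L are uncertain for this reason.

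The tRNA genes on which the tRNA results turn are shown first, with the hg38 sequence read 5′ to 3′ on the gene's own strand and the anticodon in capitals. The first 4 are the tRNA genes whose counts passed both thresholds in Ako-3 cells, and the last pair had the highest counts of all tRNA genes.
MT-TE (tRNA-Glu, MT:14674-14742, minus strand): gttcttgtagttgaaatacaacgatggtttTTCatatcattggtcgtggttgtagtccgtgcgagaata
MT-TH (tRNA-His, MT:12138-12206, plus strand): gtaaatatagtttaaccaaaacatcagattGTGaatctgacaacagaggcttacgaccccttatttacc
MT-TG (tRNA-Gly, MT:9991-10058, plus strand): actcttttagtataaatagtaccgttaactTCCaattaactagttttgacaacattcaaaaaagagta
MT-TR (tRNA-Arg, MT:10405-10469, plus strand): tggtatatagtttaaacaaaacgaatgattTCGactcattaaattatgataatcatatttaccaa
MT-TN (tRNA-Asn, MT:5657-5729, minus strand): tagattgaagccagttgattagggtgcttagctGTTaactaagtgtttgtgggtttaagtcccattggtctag
MT-TC (tRNA-Cys, MT:5761-5826, minus strand): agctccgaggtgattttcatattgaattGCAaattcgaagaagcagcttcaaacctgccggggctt

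The 5 sequences that follow run across the end of a plus-strand mRNA into the next gene, with the encoded bases of the stop codon in capitals, and are shown because several of the sparse tRNA genes begin at such borders. In 6 of the 13 mRNAs the annotated length was not a multiple of 3, so that only T or TA of the stop codon is encoded and the A tail is known to complete it. Of the mRNAs shown, MT-CO3, MT-ND3, MT-ND4 and MT-CYB ended in a lone T with 0 bases before the following tRNA, and MT-CO2 ended in a whole codon with 25 bases before MT-TK.
MT-CO3 end into MT-TG (MT:9976-10005, plus strand): attgatgagggtctTactcttttagtataa
MT-ND3 end into MT-TR (MT:10390-10419, plus strand): tagactgaaccgaaTtggtatatagtttaa
MT-ND4 end into MT-TH (MT:12123-12152, plus strand): ccgggttttcctctTgtaaatatagtttaa
MT-CYB end into MT-TT (MT:15873-15902, plus strand): tactcaaatgggccTgtccttgtagtataa
MT-CO2 end into MT-TK (MT:8255-8284, plus strand): gtatttaccctaTAGcaccccctctacccc

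Of all counts on genes, the 37 mitochondrial genes together took 5.52, 5.66 and 6.17% in the control libraries, 7.40, 7.06 and 7.39% in the Ako-3 libraries and 5.75, 5.81 and 5.82% in the Mko-3 libraries. The Ako-3 libraries lay above all others, and the Mko-3 libraries lay within the control range. The group means were 5.78% ± 0.34, 7.28% ± 0.19 and 5.80% ± 0.036 (SD, n = 3 each). Split by class, this near-equal total in control and Mko-3 cells was made of different parts. The mRNAs took 4.09 to 4.72% in control, 6.02 to 6.37% in Ako-3 and 4.98 to 5.07% in Mko-3 libraries, with no overlap between any pair of groups. The rRNAs took 1.25 to 1.43%, 0.994 to 1.03% and 0.732 to 0.771% in that order, again with no overlap. The tRNAs took 0.0202% ± 0.0019, 0.0205% ± 0.0018 and 0.0217% ± 0.00078 (SD, n = 3 each), and these ranges overlapped. Wilson intervals of 95% on a single library's share were at most 0.0125 percentage points to either side, and they cover counting error only. Since a share also rises where other RNAs fall, and since these are bulk cultures, more mitochondrial RNA per cell and a change in which cells made up the culture cannot be told apart.

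**Figure D1:**
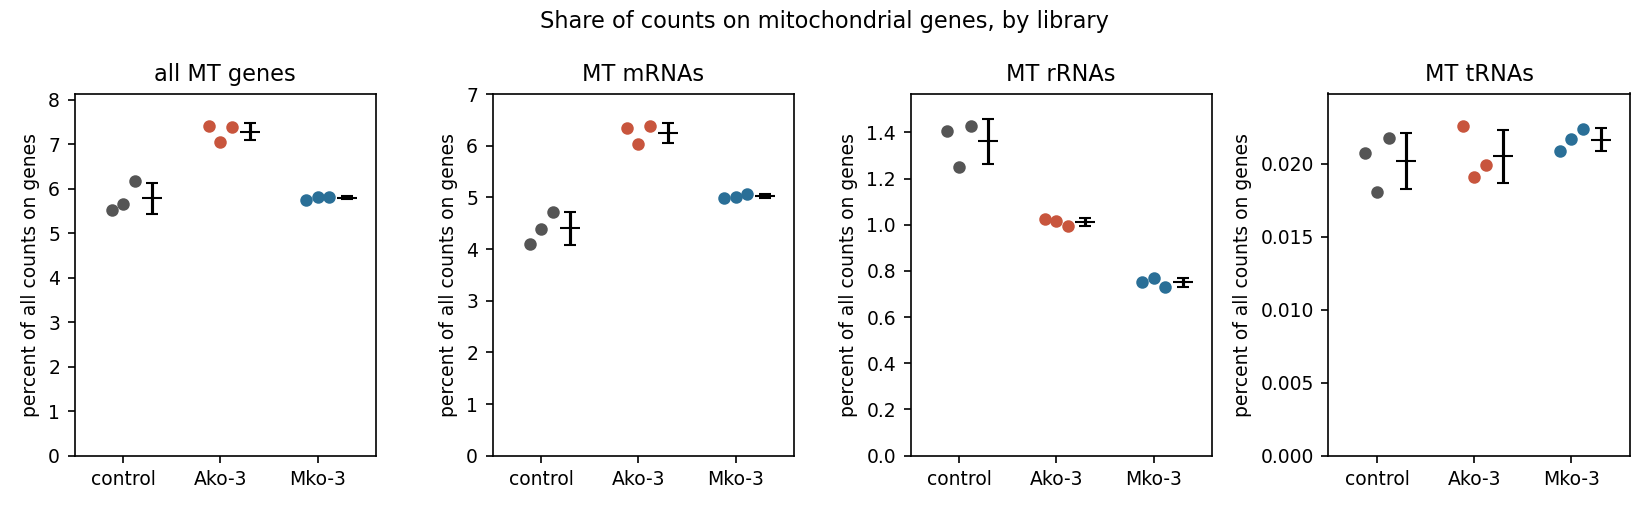
Share of all counts on genes (percent, linear axes from 0) taken by all mitochondrial genes, the 13 mRNAs, the 2 rRNAs and the 22 tRNAs. Dots are the 3 libraries of each group and the bars to their right are mean ± SD. The Mko-3 total of 5.80% lies at the control total of 5.78%, while its mRNA share is above and its rRNA share is below every control library.

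Levels of different genes were compared on the FPKM scale, which divides by gene length. MT-CO1, the catalytic subunit of cytochrome oxidase, had the highest FPKM of all 58735 genes in each group, at 9921 ± 622 in control, 14553 ± 411 in Ako-3 and 10910 ± 71.4 in Mko-3 cells (SD, n = 3 each). Of the 20 genes with the highest mean FPKM, 14 were mitochondrial in each group. In control cells the large rRNA, MT-RNR2, came second at 7444 ± 501 FPKM, and its range overlapped that of MT-CO2 at 6710 ± 444. In both clones it came sixth, behind MT-CO3, MT-CO2, MT-ATP6 and MT-ND4 as well, at 5715 ± 121 FPKM in Ako-3 and 4095 ± 81.9 in Mko-3 cells, and its range there did not overlap that of the next gene in the order. The small rRNA, MT-RNR1, was at 1382 ± 26.9, 1449 ± 41.6 and 1210 ± 32.8 FPKM, below MT-RNR2 in every group although the ribosome holds the 2 rRNAs in equal number. Among the tRNAs MT-TN was highest, at 1270 ± 129, 1245 ± 215 and 1351 ± 62.7 FPKM, and MT-ATP8 was the lowest mRNA, at 38.1, 65.9 and 54.7 FPKM in the same order. FPKM of genes as short as tRNAs depends strongly on the length used and is not read further.

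Differences between groups were tested with edgeR's quasi-likelihood F test on the counts of all genes, with Benjamini-Hochberg adjustment over all genes tested, and a positive log2 fold change means higher in the clone. Of the 13 mRNAs, 12 rose in Ako-3 cells at an adjusted p of at most 0.05, none fell, and MT-ND3 did not pass. In this comparison 25.5% of all 15787 genes tested rose by the same rule and 24.4% fell. The median log2 fold change of the 13 mRNAs was 0.66, beside -0.01 over all genes tested. The largest of these rises was that of MT-CYB, cytochrome b of complex III, at 1557, 1606 and 1633 CPM in control and 3178, 3039 and 3152 CPM in Ako-3 libraries. The Ako-3 libraries stood apart from the control libraries, with a log2 fold change of 0.96 ± 0.06 (SE; edgeR adjusted p = 3.1e-11), which is 1.94-fold.

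MT-CYB missed the log2 threshold of 1 that the study sets beside the adjusted p, and so did every other mRNA. By both thresholds 4 of the 25 mitochondrial genes tested were higher in Ako-3 cells, all of them tRNAs, against 3.52% of all genes tested, and none was lower. MT-TH, MT-TG and MT-TR were under 10 counts in every control library and passed the filter only through the Ako-3 libraries. Their being higher was thus set by the filter, and the count of 4 is not a result about tRNAs. With at least 10 counts required in every library, MT-TE alone passed. Of the 3 core subunits of cytochrome oxidase, complex IV, MT-CO3 rose most, from 4236, 4884 and 4914 CPM in control to 7815, 7774 and 8201 CPM in Ako-3 libraries (log2 fold change 0.75 ± 0.06, SE, edgeR adjusted p = 5.8e-09). MT-CO1 stood at 14470, 15430 and 16433 CPM in control and 23254, 22067 and 22853 CPM in Ako-3 libraries, a log2 fold change of 0.55 ± 0.06 (SE, edgeR adjusted p = 1.6e-07). MT-CO2, the subunit that accepts electrons from cytochrome c, rose least of the 12, by 0.39 ± 0.06 (SE, edgeR adjusted p = 2e-05). The control and Ako-3 ranges of these 3 subunits did not touch.

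Complex I, which takes electrons from NADH, holds 7 of the encoded proteins, and 6 of them rose in Ako-3 cells, by log2 fold changes from 0.56 for MT-ND1 to 0.75 for MT-ND4L. MT-ND6, the mRNA of the minus strand, was among them at 0.63 ± 0.07 (SE, edgeR adjusted p = 2.3e-07), with 757 to 927 CPM in control and 1277 to 1301 CPM in Ako-3 libraries. Its counts may hold RNA of the plus strand, so the rise need not be one of the minus-strand mRNA. The exception was MT-ND3, at 607, 438 and 517 CPM in control and 476, 456 and 483 CPM in Ako-3 libraries. These ranges overlapped, and the log2 fold change was -0.15 ± 0.09 (SE, edgeR adjusted p = 0.2). Without control replicate 2 it was -0.26 with an edgeR adjusted p of 7.7e-04, and with total counts in place of TMM it was -0.25 with an edgeR adjusted p of 0.043. The pair of ATP synthase subunits, MT-ATP6 and MT-ATP8, rose by 0.57 and 0.78, though MT-ATP8 had only 105 to 264 counts per library.

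In Mko-3 cells 10 of the 13 mRNAs rose, none fell and 3 did not pass, against 26.9% of all 15745 genes tested that rose and 27.1% that fell. The median log2 fold change of the 13 was 0.39, beside -0.01 over all genes tested. MT-CYB again had the largest rise of the mRNAs, at 2454, 2433 and 2553 CPM in Mko-3 libraries, all above the 3 control libraries, with a log2 fold change of 0.62 ± 0.05 (SE, edgeR adjusted p = 4.9e-09). The 6 complex I genes other than MT-ND3 rose by 0.32 for MT-ND6 to 0.56 for MT-ND4L, and MT-ATP6 and MT-ATP8 rose by 0.26 and 0.50. The rise of MT-ATP8 rested on Mko-3 replicate 3, and without it the log2 fold change was 0.31 with an edgeR adjusted p of 0.12.

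Among the cytochrome oxidase mRNAs, only MT-CO3 passed in Mko-3 cells, at 6001, 6196 and 6251 CPM against 4236 to 4914 CPM in control libraries (log2 fold change 0.38 ± 0.06, SE, edgeR adjusted p = 1.4e-05). MT-CO1 was at 16905, 17154 and 16854 CPM, just above the control libraries, with a log2 fold change of 0.12 ± 0.05 (SE, edgeR adjusted p = 0.059). Without control replicate 2 its edgeR adjusted p was 0.021, and without control replicate 3 it was 0.009. MT-CO2 was at 4623, 4572 and 4677 CPM, within the control range of 4281 to 4823, with a log2 fold change of -0.01 and a 95% interval from -0.13 to 0.10. MT-ND3 was at 436, 422 and 474 CPM (log2 fold change -0.24 ± 0.10, SE, edgeR adjusted p = 0.055), and it passed without control replicate 2 (-0.34, edgeR adjusted p = 3.9e-05), without Mko-3 replicate 3 (-0.28, edgeR adjusted p = 0.048) and in DESeq2 (adjusted p = 0.03).

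**Figure D2:**
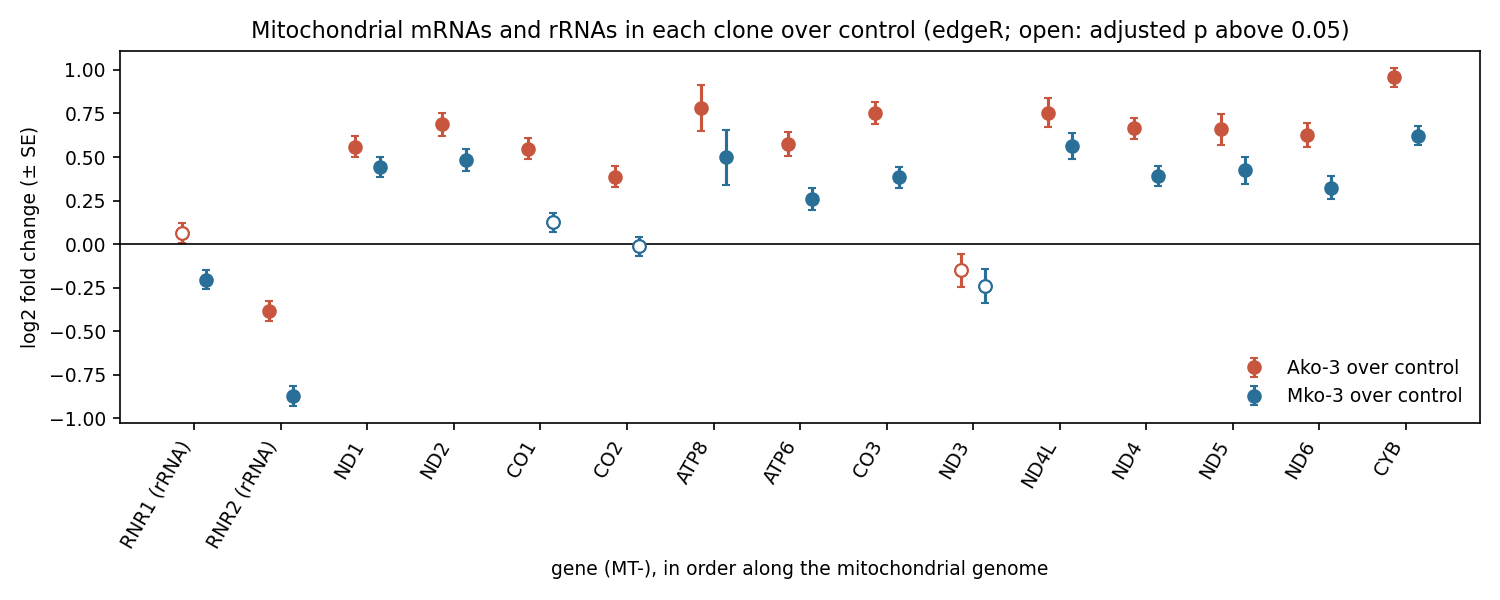
Log2 fold change over control (y axis, ± SE, edgeR) of the 13 mRNAs and 2 rRNAs in the order of the genome (x axis), for Ako-3 and Mko-3, each from 3 against 3 libraries. Open points had an adjusted p above 0.05. MT-RNR2 lies lowest in both clones, at -0.39 and -0.87, and MT-CYB highest, at 0.96 and 0.62.

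The 2 rRNAs form the core of the small and the large subunit of the mitochondrial ribosome. MT-RNR2, the large-subunit rRNA, stood at 12149, 10787 and 12215 CPM in control, 9229, 8999 and 8838 CPM in Ako-3 and 6403, 6605 and 6313 CPM in Mko-3 libraries. No groups overlapped, and it fell by 0.39 on the log2 scale in Ako-3 cells (SE 0.06, edgeR adjusted p = 1.7e-05) and by 0.87 in Mko-3 cells (SE 0.06, edgeR adjusted p = 7.8e-11). MT-RNR1, the small-subunit rRNA, moved less, from 1340, 1300 and 1354 CPM in control to 1354, 1436 and 1408 CPM in Ako-3 and 1183, 1186 and 1124 CPM in Mko-3 libraries. Its log2 fold change was 0.06 ± 0.06 in Ako-3 cells (SE, edgeR adjusted p = 0.36), where the sign turned to -0.03 with total counts in place of TMM, and it fell by 0.20 in Mko-3 cells (SE 0.05, edgeR adjusted p = 0.0033). Without Mko-3 replicate 3 the fall was 0.17 on the log2 scale and did not pass, with an edgeR adjusted p just above 0.05.

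Ratios of counts inside one library do not depend on how libraries were scaled against each other. The rRNA counts per 100 mRNA counts were 34.3, 28.5 and 30.2 in control, 16.2, 16.9 and 15.6 in Ako-3 and 15.1, 15.4 and 14.4 in Mko-3 libraries. The clones lay at close to the same ratio, and their ranges did not reach the control range. MT-RNR2 counts over MT-RNR1 counts were 8.80 ± 0.43 in control, 6.45 ± 0.31 in Ako-3 and 5.53 ± 0.11 in Mko-3 cells (SD, n = 3 each), with no overlap between groups. Ratios between mRNAs were also apart. MT-CYB over MT-ND1, the last and the first mRNA of the plus strand, was 0.992 to 1.03 in control, 1.28 to 1.40 in Ako-3 and 1.12 to 1.20 in Mko-3 libraries. MT-ND3 over its neighbour MT-CO3 was 0.113 ± 0.028, 0.0595 ± 0.0012 and 0.0722 ± 0.0038 (SD, n = 3 each), lower in both clones than in any control library. By contrast, MT-ND6 over MT-ND5, genes of opposite strands that meet end to end, was 0.406 ± 0.038, 0.395 ± 0.025 and 0.377 ± 0.019 (SD, n = 3 each), and these ranges overlapped. No test was run on these ratios. Poly(A) selection sets how much of each rRNA enters a library, and its part in the rRNA values was not tested.

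**Figure D3:**
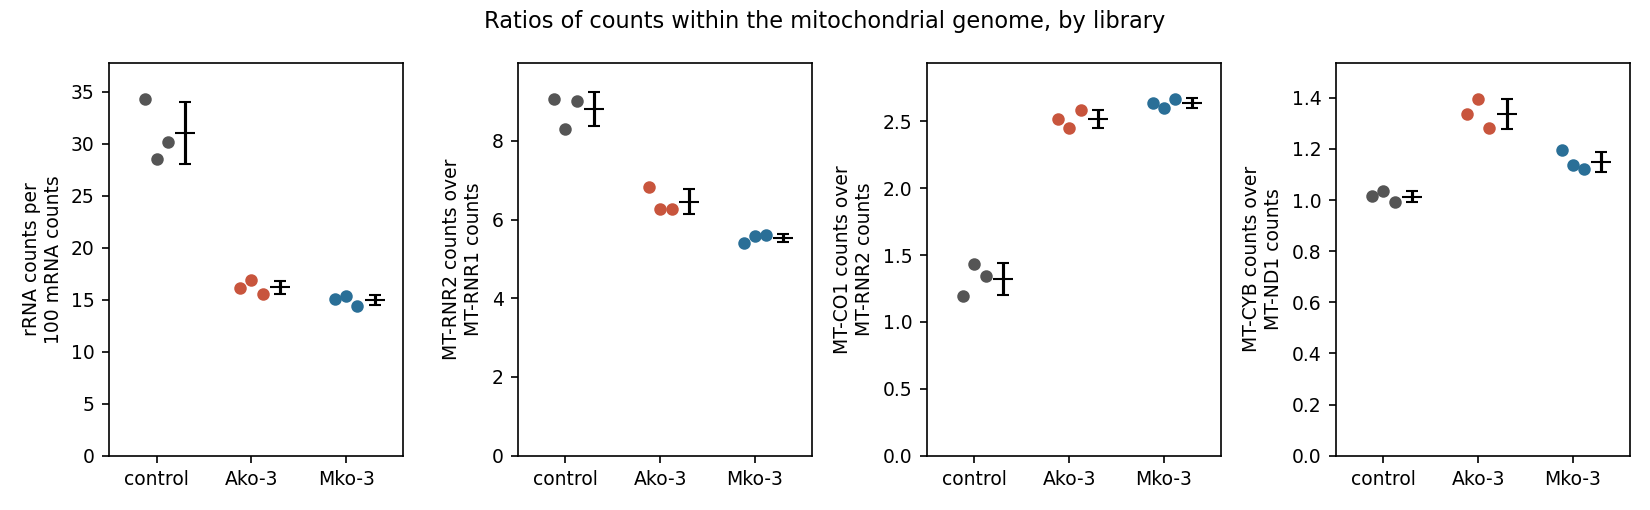
Ratios of raw counts within each library (linear axes from 0): rRNA counts per 100 mRNA counts, MT-RNR2 over MT-RNR1, MT-CO1 over MT-RNR2, and MT-CYB over MT-ND1. Dots are libraries and bars are mean ± SD of 3. In each panel both clones lie apart from control, for example at 15.6 to 16.9 and 14.4 to 15.4 rRNA counts per 100 mRNA counts against 28.5 to 34.3.

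The 22 tRNA genes, whose RNAs carry no A tail, took few reads, and 12 of them averaged under 10 counts per library. Most tRNA counts fell on 4 minus-strand genes, MT-TN, MT-TC, MT-TP and MT-TY, the tRNAs for asparagine, cysteine, proline and tyrosine, with 94.7 to 95.5% of tRNA counts in control and 90.7 to 92.0% in the clones' libraries. MT-TN had 1839, 1250 and 1794 counts in control, 1805, 1591 and 1466 in Ako-3 and 1665, 1781 and 1571 in Mko-3 libraries, with overlapping ranges. MT-TN, MT-TC and MT-TP did not pass the test in either clone, with log2 fold changes from -0.04 to 0.16. MT-TY rose in Ako-3 cells, from 175, 162 and 205 counts to 267, 258 and 291 (log2 fold change 0.55 ± 0.13, SE, edgeR adjusted p = 0.0015). In Mko-3 cells it had 227, 220 and 184 counts, with a log2 fold change of 0.24 ± 0.12 (SE, edgeR adjusted p = 0.1).

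A second set of tRNA genes, sparse in control cells, had more counts in both clones. MT-TE, the glutamate tRNA on the minus strand between MT-ND6 and MT-CYB, had 12, 13 and 19 counts in control, 63, 46 and 56 in Ako-3 and 83, 59 and 63 in Mko-3 libraries. Each clone library held more counts than any control library, and MT-TE rose 3.63-fold in Ako-3 cells (log2 fold change 1.86 ± 0.30, SE, edgeR adjusted p = 3.4e-05) and 4.71-fold in Mko-3 cells (2.23 ± 0.27, SE, edgeR adjusted p = 6.2e-07). It was the 1 gene of those passing both thresholds that had at least 10 counts in every library, and it stayed past both in every alternative that tested it. Counts on MT-TE may hold RNA of the plus strand, so the rise need not be one of the glutamate tRNA.

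MT-TH, the histidine tRNA that follows MT-ND4, had 2, 1 and 5 counts in control, 22, 20 and 27 in Ako-3 and 23, 17 and 27 in Mko-3 libraries. MT-TG, the glycine tRNA that follows MT-CO3, had 5, 4 and 3 counts in control, 17, 25 and 19 in Ako-3 and 19, 16 and 25 in Mko-3 libraries. For both, every clone library was above every control library, and the log2 fold changes were 3.01 ± 0.52 and 2.26 ± 0.46 in Ako-3 cells and 3.05 ± 0.52 and 2.32 ± 0.47 in Mko-3 cells (SE; edgeR adjusted p from 4.6e-05 to 3.4e-04). MT-TR, the arginine tRNA that follows MT-ND3, had 6, 2 and 5 counts in control, 12, 22 and 14 in Ako-3 and 12, 12 and 7 in Mko-3 libraries, and it passed in Ako-3 cells (1.80 ± 0.49, SE, edgeR adjusted p = 0.0043) but was filtered out of the Mko-3 comparison. MT-TH, MT-TG and MT-TR passed the filter only through the libraries in which they were high, so that they had to differ once tested, and their number supports nothing about tRNAs in general.

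MT-TI and MT-TL2 missed the filter on low counts in both comparisons with control and are given there as counts alone, with every control library at or under 3 counts. MT-TI, the isoleucine tRNA directly after MT-ND1, had 1, 0 and 2 counts in control, 18, 14 and 8 in Ako-3 and 10, 8 and 6 in Mko-3 libraries. MT-TL2, a leucine tRNA between MT-TS2 and MT-ND5, had 3, 0 and 3, then 9, 19 and 18, then 11, 10 and 8 counts. All clone libraries were above all control libraries for both, and between the clones, where MT-TL2 was tested, its log2 fold change was -0.58 (edgeR adjusted p = 0.29). In Mko-3 cells 3 mitochondrial genes, MT-TE, MT-TH and MT-TG, passed both thresholds, all of them higher, against 3.82% of all genes tested. MT-TH and MT-TG passed the filter there only through the Mko-3 libraries. With at least 10 counts required in every library, MT-TE alone passed. MT-TL1, the leucine tRNA after MT-RNR2, and MT-TT, the threonine tRNA after MT-CYB, passed the adjusted p alone there (0.42 ± 0.16 and 0.81 ± 0.34, SE, edgeR adjusted p = 0.029 and 0.05), but DESeq2 gave adjusted p values of 0.054 and 0.093. Of the sparse genes, MT-TG, MT-TR, MT-TH and MT-TI each begin 0 bases after an mRNA, at borders of which the first 3 are printed above. MT-TW also begins 0 bases after an mRNA, MT-ND2, and had 0 to 4 counts in all 9 libraries. MT-TT likewise begins 0 bases after MT-CYB and had 14 to 22 counts in control and 17 to 38 in the clones' libraries. MT-TE and MT-TL2 do not follow an mRNA in this way but lie 0 bases before one, MT-ND6 and MT-ND5. Of the abundant genes, MT-TN and MT-TC lie 31 bases apart and MT-TP borders the noncoding control region of 1122 bases. MT-TF, at the other side of that region, had 0 to 2 counts in all 9 libraries. Whether the reads on tRNA genes came from mature tRNAs, from uncut precursors or from RNA of the opposite strand was not tested.

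**Figure D4:**
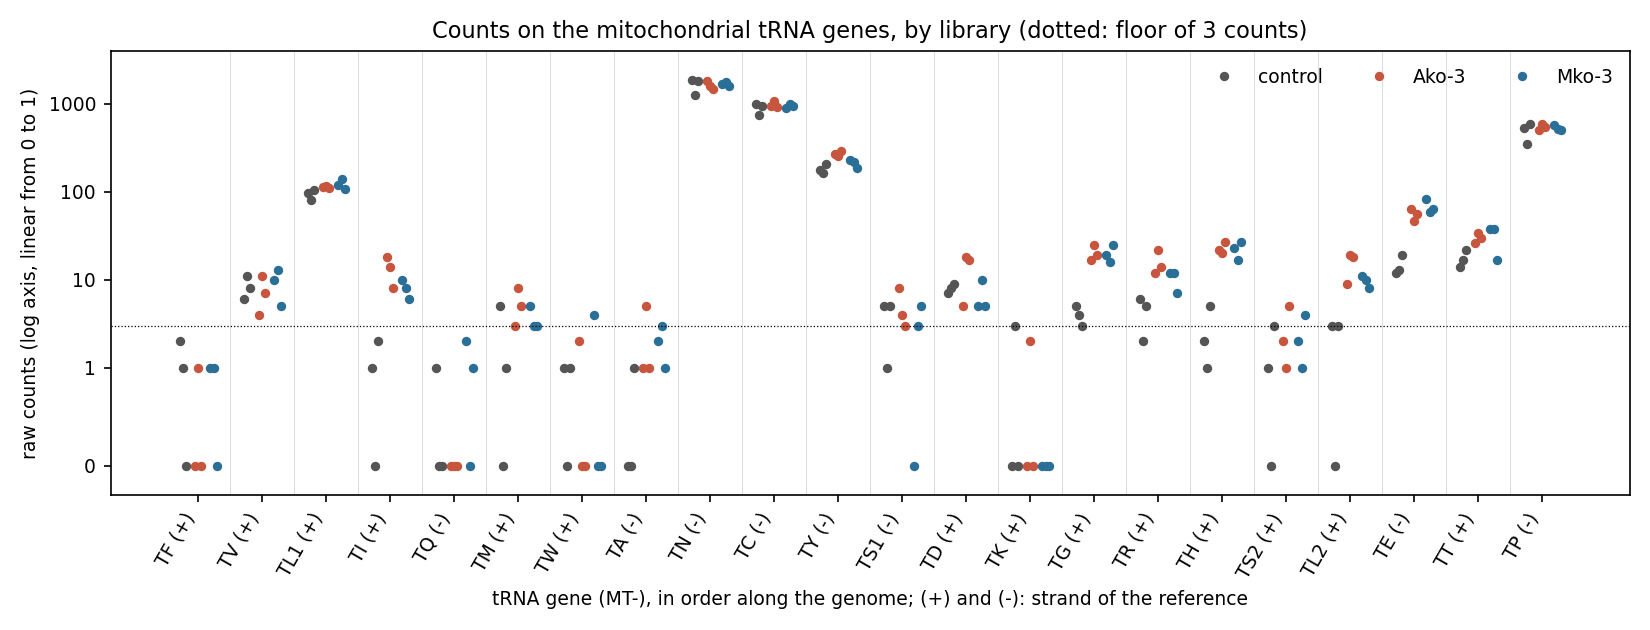
Raw counts on each of the 22 tRNA genes (y axis, logarithmic above 1 and linear from 0 to 1) in genome order, 1 dot per library. The dotted line marks 3 counts. MT-TN, MT-TC, MT-TY and MT-TP hold most counts, and MT-TE runs from 12 to 19 counts in control and from 46 to 83 in the clones.

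The clones were also compared with each other, with no control library in the fit. Of 27 mitochondrial genes tested, 13 were lower in Mko-3 than in Ako-3 cells at an adjusted p of at most 0.05, and none was higher by edgeR's quasi-likelihood test or DESeq2, against 20.6% of all 15528 genes tested that were lower and 21.1% that were higher. By both thresholds edgeR called 0 mitochondrial genes, against 5.73% of all genes in either direction. DESeq2 also called 0, and at an unadjusted p under 0.05 with the same fold the edgeR count was 0. The 13 were both rRNAs, MT-TY and 10 of the 13 mRNAs, with a median log2 fold change of -0.28 over all 13 mRNAs beside 0.00 over all genes tested. MT-RNR2 differed most (-0.49 ± 0.03, SE, edgeR adjusted p = 1.1e-23), followed by the cytochrome oxidase mRNAs MT-CO1, MT-CO2 and MT-CO3 at -0.42, -0.40 and -0.37. The complex I mRNAs that passed ranged from -0.30 for MT-ND6 to -0.12 for MT-ND1. MT-ND1 lost its call in the fit of all 9 libraries (edgeR adjusted p = 0.1) and in both limma fits (adjusted p = 0.15 and 0.16). It also lost it without Ako-3 replicate 1, Ako-3 replicate 3 or Mko-3 replicate 1 (edgeR adjusted p = 0.059, 0.097 and 0.13). MT-TY lost its call in DESeq2 (adjusted p = 0.052). It did so too without Ako-3 replicate 1, Ako-3 replicate 3 or Mko-3 replicate 3 (edgeR adjusted p = 0.086, 0.13 and 0.073). MT-TE, MT-TH and MT-TG did not pass between the clones, and their 95% intervals were wide, from -0.02 to 0.78, -0.61 to 0.68 and -0.61 to 0.74 on the log2 scale. MT-ND3 did not pass either (-0.09, edgeR adjusted p = 0.063), but did without Ako-3 replicate 2 (edgeR adjusted p = 0.042) or Mko-3 replicate 3 (-0.14, edgeR adjusted p = 0.012). MT-ND4L (-0.19, edgeR adjusted p = 0.1) passed without Ako-3 replicate 2 (edgeR adjusted p = 7.3e-07) or Mko-3 replicate 3 (edgeR adjusted p = 1.9e-04). MT-ATP8 (-0.28, edgeR adjusted p = 0.058) passed without Ako-3 replicate 1 (edgeR adjusted p = 0.046) or Mko-3 replicate 3 (edgeR adjusted p = 0.0028).

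The nuclear genome holds copies of mitochondrial DNA, and reads can be counted on the wrong one. By name, 407 genes of the files are such copies, 347 of which had no count in any library. The copies together took 0.0515 to 0.0783% of counts. The 4 with a mean of at least 100 counts, MTATP6P1, MTND2P28, MTND1P23 and MTCO1P12, lie side by side on chromosome 1 from 629062 to 634376 (hg38) and are 98.4 to 99.4% identical to the mitochondrial genes over the bases aligned. Their log2 fold changes were 0.37, 0.68, 0.35 and 0.57 in Ako-3 cells and 0.09, 0.53, 0.25 and 0.00 in Mko-3 cells. MTCO1P12 and MTATP6P1 did not pass in Mko-3 cells (edgeR adjusted p = 0.97 and 0.26), where MT-CO1 did not pass either but MT-ATP6 did (0.26, edgeR adjusted p = 0.0016). MTND5P1 and MTCYBP21 on chromosome 21, named after their values were seen, went the other way, from 39 to 69 and 39 to 75 counts in control to 9 to 23 and 10 to 22 in the clones' libraries.

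Proteins made from nuclear genes transcribe, cut, tail and translate the mitochondrial RNAs, and lists of them were examined in the same fits. Rises and falls are counted at an edgeR adjusted p of at most 0.05. By this rule 25.5% of all genes tested rose and 24.4% fell in Ako-3 cells, and 26.9% rose and 27.1% fell in Mko-3 cells. Of 18 genes for mitochondrial transcription and replication, 8 rose and 0 fell in Ako-3 cells, and 10 rose and 2 fell in Mko-3 cells, with medians of 0.15 and 0.24 on the log2 scale beside -0.01 over all genes in each comparison. SSBP1, which coats single-stranded mitochondrial DNA, and TWNK, its helicase, rose by 0.48 and 0.51 in Mko-3 cells (edgeR adjusted p = 1.1e-05 and 6.5e-05), and POLDIP2 rose by 0.52 in Ako-3 and 0.35 in Mko-3 cells. POLRMT and TFAM, named for their role after their values were seen, showed no common direction. POLRMT, the polymerase itself, was at 192 CPM in Ako-3 cells beside 194 in control and fell by 0.34 on the log2 scale in Mko-3 cells (edgeR adjusted p = 2.4e-04), while TFAM, which packs the DNA and starts transcription, went from 62.5 to 68.5 and 72.2 CPM (0.13 and 0.20, edgeR adjusted p = 0.2 and 0.04).

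Of 31 genes for processing, tailing and decay of mitochondrial RNA, 19 rose and 2 fell in Ako-3 cells, and 14 rose and 3 fell in Mko-3 cells. Of all genes tested, 25.5% rose and 24.4% fell in Ako-3 cells, and 26.9% rose and 27.1% fell in Mko-3 cells. FASTKD5, needed to cut mitochondrial RNAs at ends not marked by a tRNA, rose most, from 376, 360 and 327 counts in control to 914, 1197 and 980 in Ako-3 and 1061, 994 and 901 in Mko-3 libraries (log2 fold changes 1.48 ± 0.09 and 1.49 ± 0.09, SE, edgeR adjusted p = 8.5e-11 and 3.1e-11). FASTKD5 lies within the span of UBOX5 on the same strand, and UBOX5 did not pass in either comparison, at 0.16 and -0.11. TRMT10C, a subunit of the RNase P that cuts the 5′ ends of mitochondrial tRNAs, rose by 0.69 and 0.60, and ELAC2, which cuts their 3′ ends, rose by 0.79 and 0.54. MTO1, a tRNA-modifying enzyme, fell by 0.57 on the log2 scale in Mko-3 cells.

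The 78 mitochondrial ribosomal protein genes, partners of the rRNAs, had 35 rises and 2 falls among 77 tested in Ako-3 cells and 29 rises and 6 falls in Mko-3 cells, led by MRPL16, MRPS12 and MRPL51, with medians of 0.19 and 0.17. None passed both thresholds. For these genes and the lists below, the shares of all genes tested at the adjusted p alone stand beside the counts. They were 25.5% rising and 24.4% falling in Ako-3 cells, and 26.9% rising and 27.1% falling in Mko-3 cells. Of 75 nuclear subunits of complexes I, III, IV and ATP synthase, 74 were tested, and 36 rose and 3 fell in Ako-3 cells against 23 and 12 in Mko-3 cells, with medians of 0.18 and 0.09 where the mitochondrial mRNAs had 0.66 and 0.39. NDUFC2 of complex I had 0.96 and 1.01, ATP5MC1 of ATP synthase 0.70 and 0.48 and COX6B1 of complex IV 0.42 and 0.12, the last not passing in Mko-3 cells. NDUFC2 shares its span with a read-through gene, so its counts are uncertain. NDUFV2 went the other way in Ako-3 cells (-1.94, edgeR adjusted p = 1.3e-04) at no more than 2.1 CPM on average in control cells. NDUFV2 shares 31610 bases of its span with another gene on the same strand, so its counts are uncertain too. The 29 mitochondrial translation factors and tRNA synthetases had 10 rises and 3 falls in Ako-3 and 9 rises and 2 falls in Mko-3 cells, with the elongation factor GFM1 at 0.56 and 0.55 and OXA1L, which inserts proteins into the inner membrane, at -0.28 and -0.38 (edgeR adjusted p = 0.0011 and 2.2e-05). The list of 12 nuclear regulators of mitochondrial genes held 0 rises and 6 falls in Ako-3 cells and 4 rises and 3 falls in Mko-3 cells. MYC fell by 1.12 and 0.66 on the log2 scale and SP1 by 0.31 and 0.30. PPARGC1A, the coactivator PGC-1 alpha, fell from 2.04 ± 0.55 CPM to 0.754 ± 0.088 and 0.230 ± 0.15 CPM (SD, n = 3 each), while PPRC1, a relative of it, rose by 0.59 in Mko-3 cells.

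**Figure D5:**
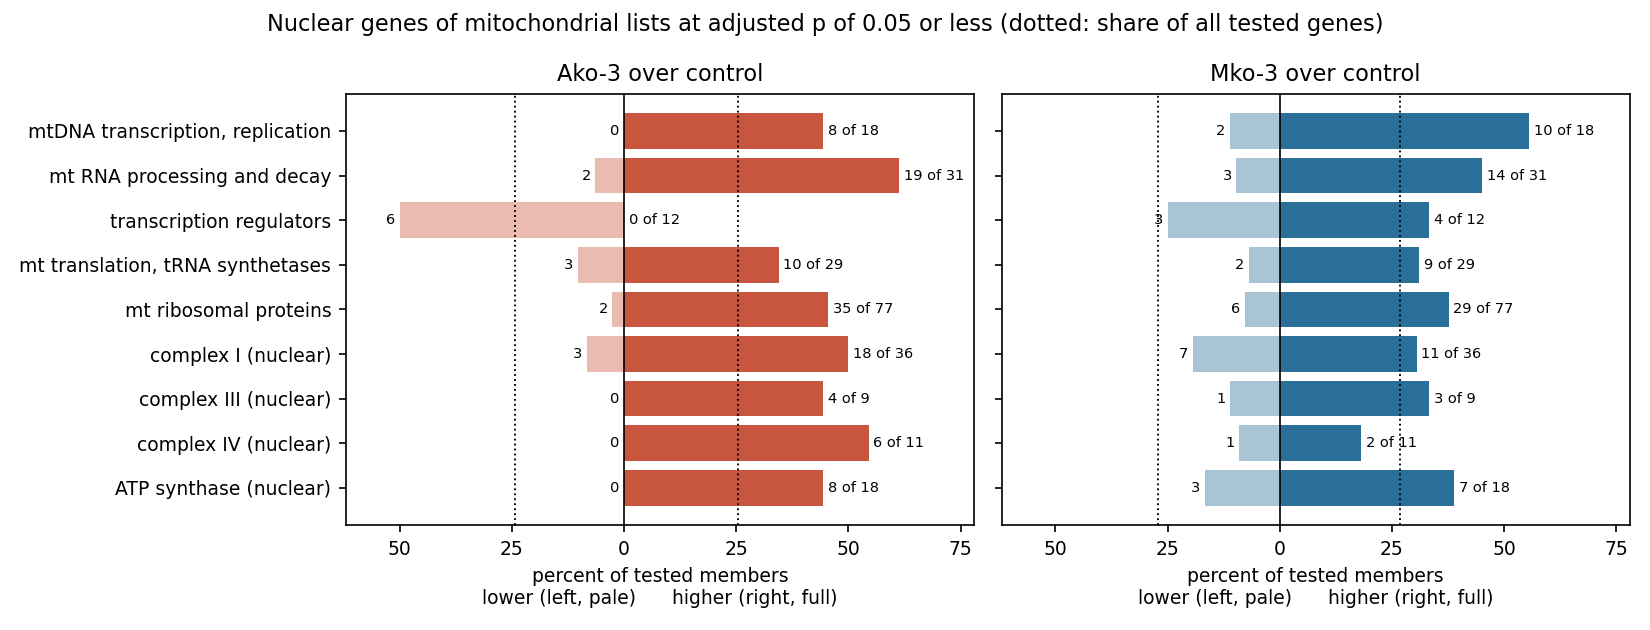
Percent of tested members of each nuclear list that were higher (right, full colour) or lower (left, pale) at an edgeR adjusted p of at most 0.05, in Ako-3 and Mko-3 cells over control. Numbers give the members, and dotted lines give the shares of all tested genes, 25.5 and 24.4% in Ako-3 and 26.9 and 27.1% in Mko-3 cells. The RNA processing list reaches 19 of 31 higher in Ako-3 cells.

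RNAs that normally lack a poly(A) tail were examined beside the tRNAs. Of 29 such genes, mainly replication-dependent histones, 10 were tested in Ako-3 cells and 13 in Mko-3 cells, 4 and 5 of them rose and none fell, beside 25.5 and 26.9% of all genes tested that rose. HIST1H1C went from 8.88 ± 2.4 CPM in control to 20.7 ± 1.3 in Ako-3 and 19.8 ± 0.87 in Mko-3 cells (SD, n = 3 each), and HIST1H2BD rose by 1.12 and 1.28 on the log2 scale. Summed over the list, the CPM ran from 62.3 to 77.5 in control, 90.5 to 96.8 in Ako-3 and 90.6 to 95.7 in Mko-3 libraries, and 7, 5 and 5 members had no count in the group. The part of poly(A) selection in the tRNA and rRNA values was not tested. PECAM1, a gene of endothelial cells that Huh-7 libraries held at 77.6 CPM in control, was at 106 CPM in Ako-3 and 51.1 CPM in Mko-3 cells, and the summed CPM of the 9 markers of other cell types ran from 79.6 to 90.6, 111.8 to 118.7 and 58.3 to 63.8. PTPRC, CD3E, CD68 and DCN, which mark blood cells and fibroblasts, were at 0 in every control library. In each clone only 1 of the 9 markers, CD68, was at 0 in every library, so PTPRC, CD3E and DCN had counts there. A single read in a single library is enough for this, and only 3 of the 9 markers passed the filter on low counts in each comparison.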

How the data were processed

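Poly(A)-selected RNA of 9 libraries was sequenced by the study as paired reads. For the deposited raw counts per gene, the authors used HISAT2 (2.0.5) with hg38 and then featureCounts (1.5.0-p3), and they deposited FPKM of the same genes beside them. The submitters' notes also list GRCh37 and hg19, but the mitochondrial coordinates matched hg38. The annotation release and the strand setting of the counting are not given in the sources used here.

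The counts were tested with edgeR (4.0.16) in R (4.3.3): TMM scaling, filterByExpr at a minimum count of 10, and the quasi-likelihood F test (two-sided) on the 6 libraries of each comparison, with Benjamini-Hochberg adjustment over all genes tested. A gene was called at an adjusted p of at most 0.05, or by both thresholds when the log2 fold change also reached 1 in size. The edgeR fit was also run on simulated counts with known changes, and no result above rests on that run. Standard errors are the log2 fold change divided by the square root of F. Alternatives were DESeq2 (1.42.0), limma (3.58.1) on log2(FPKM + 1) and log2(FPKM + 0.1), RLE or no scaling factors, scaling from nuclear genes, 2 other filters, a fit of all 9 libraries, a replicate block, other denominators of the shares, and leaving out each library.

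Genes on chromosome MT were all open to naming. From each nuclear list, the 3 tested members with the smallest adjusted p in each comparison with control were named, as were APOB, MTTP and nuclear copies with a mean of at least 100 counts, and 1 gene that the rule picked is not reported here. The members and lists were chosen with earlier results of these data known. An exact permutation test of 3 against 3 libraries cannot go below p = 0.1 and was not used. The labels do not say that libraries came from separate cultures, so p-values measure the spread between these libraries, which may be technical. Libraries with the same number in 2 groups were not paired: correlations of their deviations ran from -0.38 to 0.31. A floor of 3 counts per library was applied to tRNA genes.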

Additional observations from a re-analysis of the deposited data

Results flagged for a closer look

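The 2 clones differed in 13 mitochondrial genes by the direct test of Mko-3 against Ako-3 libraries (edgeR's quasi-likelihood test, adjusted p at most 0.05), and all 13 were lower in Mko-3 cells. The log2 differences were -0.49 for MT-RNR2 and -0.27 for MT-RNR1 among the rRNAs. Among mRNAs of complexes III and IV and of ATP synthase they were -0.42 for MT-CO1, -0.40 for MT-CO2, -0.37 for MT-CO3, -0.33 for MT-CYB and -0.32 for MT-ATP6. Among complex I mRNAs they were -0.30 for MT-ND6, -0.27 for MT-ND4, -0.23 for MT-ND5, -0.20 for MT-ND2 and -0.12 for MT-ND1. The tyrosine tRNA MT-TY was at -0.30. The calls of MT-ND1 and MT-TY were lost in some of the alternatives, as given above. Since each clone stands for 1 disrupted gene, clone and gene cannot be told apart.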

How the results depend on the processing

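Of the mRNA results, the median log2 fold changes kept sign in every setting tried, and the replicate block gave 4, 3 and 0 genes past both thresholds for Ako-3 and Mko-3 over control and Mko-3 over Ako-3, with medians of 0.67, 0.39 and -0.29, as DESeq2 also gave 4, 3 and 0. In Mko-3 over control the block added a call for MT-ND3 (edgeR adjusted p = 0.0085) and lost that for MT-TT (edgeR adjusted p = 0.067). Between the clones it added calls for MT-ND4L, MT-ATP8 and MT-ND3 (edgeR adjusted p = 7.1e-07, 0.031 and 0.041). The number past both thresholds depended on the filter: with at least 10 counts in every library it was 1 for each clone, MT-TE, and for Mko-3 it was 5 with no filter, 5 in a fit of all 9 libraries, and 3 to 5 when leaving out a library, with 5 without Mko-3 replicate 3. Fewer tRNA genes are tested under the stricter filter. With total counts in place of TMM, 2 genes fell in Ako-3 cells in place of 1 and the mRNA median was 0.56, and leaving out a library gave 1 to 2 falls, with 2 without control replicate 2. Between the clones, leaving out a library gave 0 to 1 called genes and 0 to 1 higher genes, both 1 without Ako-3 replicate 1. MT-CO1 passed in Mko-3 cells with RLE factors (adjusted p = 0.047).

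Without the 10 most abundant nuclear genes in the denominator the shares were 7.65% for all genes, 6.56% for mRNAs and 1.06% for rRNAs in Ako-3 cells and 6.07%, 5.26% and 0.787% in Mko-3 cells. Over protein-coding and mitochondrial genes alone, Mko-3 had 5.89% for all and 5.10% for mRNAs. Signs turned only for values near 0. With total counts, MT-RNR1 and MT-TC in Ako-3 cells were at -0.031 and -0.019. MT-CO2 in Mko-3 cells was at 0.019 with no filter, 0.00030 in both limma fits and -0.065 to 0.027 without a library. Leaving out a library gave -0.18 to 0.056 for MT-TN and -0.0088 to 0.24 for MT-TP in Ako-3 cells. Between the clones it gave -0.19 to 0.22 for MT-TH, -0.031 to 0.35 for MT-TT, -0.023 to 0.11 for MT-TC and -0.20 to 0.23 for MT-TG. The cause of these shifts was not tested.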
